A study of Mus musculus with 24 samples.

Results

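The induced organoids that carried the BRAFV600E allele were compared between colon (COL) and small intestine (SI). Of 24 RNA sequencing libraries, 8 belonged to this comparison: 2 libraries each of the BRAF and the BRAFp53 genotype from COL and the same from SI, all treated with 4-hydroxytamoxifen (4-HT). Organoids are epithelial cultures grown in gel from intestinal crypts. The donor mice, of the C57BL/6N strain, carried Villin::CreERT2, a Cre recombinase that is restricted to intestinal epithelium by the Villin promoter and activated by 4-HT, which all groups used here shared. BRAF cultures carried 1 conditional Braf allele that recombination switches from wild-type to BRAFV600E, a constitutively active kinase that drives ERK signaling. BRAFp53 cultures carried in addition 1 conditional Trp53 allele that recombination switches on to express p53R172H, a mutant form of the tumor suppressor p53. Induced libraries are called on, and the ethanol-treated libraries of the same cultures, which served as the reference state, are called off. Each genotype was 1 donor culture per tissue, and its 2 libraries in a state are labelled as repeats.

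Tissue was not the only difference between the groups. COL organoids received 3.5 µM 4-HT for 24 h and gave RNA on day 3, whereas SI organoids received 0.5 µM for 24 h and gave RNA on day 8. COL medium also contained Wnt3a and the GSK3 inhibitor CHIR99021, and SI crypts came from the proximal small intestine. A difference between COL and SI therefore cannot be told apart from a difference in dose, day or medium.

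As background, the small intestine digests and absorbs food. Its enterocytes carry a brush border of sugar- and peptide-cleaving enzymes, take up sugars, amino acids and lipids, and pack lipids into lipoproteins. The colon absorbs water and salt and forms the thicker mucus. These regional programs are set up by position-specific transcription factors, among them the GATA factors of the proximal intestine and the posterior Hox genes of the colon, and the epithelium of both regions can adopt a fetal-like state after injury.

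The 8 on libraries held between 44350747 and 78175143 counts. A level of 3 counts, used as the floor of detection per library, came to between 0.038 and 0.087 counts per 1000000 counts (CPM, with TMM scaling factors, which align most genes between libraries). On the log2 CPM scale, 74.3% of the variance of the 8 libraries lay on a first principal component that separated COL from SI, 10.6% on a second that separated the SI genotypes, and 8.23% on the third that separated the COL genotypes. Of 14 markers of stroma, endothelium and immune cells, 2 had no count in any on library, and the summed level of the 14 was 2.59 to 3.17 CPM in COL and 6.20 to 12.3 CPM in SI, where Csf1r held 2.86, 4.85, 8.57 and 10.8 CPM. The epithelial markers Epcam, Cdh1 and Vil1 were abundant in every library. Of the 7 stroma, endothelium and immune markers tested, 0 were called by edgeR in either state, and 3 had an unadjusted p under 0.05 in the on state and 2 in the off state. In the on state DESeq2 called 1 higher in COL and 1 higher in SI and limma-voom 2 and 1. Over all 18928 genes edgeR called 9.63% on and 5.45% off, and 5337 and 4970 genes had an unadjusted p under 0.05. In the on state DESeq2 called 4210 of all genes and limma-voom 5872. Of 8 epithelial markers, 1 was called in the on state (4.51% of all genes were called higher in COL), the keratin gene Krt18, which arose toward COL with 1.81 (adjusted p = 0.82 for the change in the culture-sum fit given below). The share of these non-epithelial transcripts in the results below was not tested.

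Sex-linked transcripts set the cultures apart. Xist, which is expressed from the inactive X chromosome, had 16.9, 0.231, 122 and 149 CPM in the SI libraries (BRAF replicates 1 and 2, then BRAFp53 replicates 1 and 2, an order kept for all lists of 4 values) and 0, 0.0384, 0 and 0 CPM in COL. Y-linked Ddx3y held 53, 46.2, 49.2 and 48.4 CPM in COL and 35.7, 39.8, 0.0597 and 0.0501 CPM in SI. The COL cultures thus had Y-linked transcripts without Xist, and the SI BRAFp53 culture had Xist with almost no Y-linked transcripts. The Y-linked Eif2s3y was nearly absent from the COL BRAF culture as well, although Ddx3y was present there. The methods name a single donor mouse per genotype for the organoid cultures, and these transcripts go against that for the COL and SI BRAFp53 cultures. Of 5 sex-linked genes tested, only Xist was called in the on state, higher in SI. SI BRAF on replicate 1 stood apart from replicate 2, with 16.9 CPM of Xist against 0.231 CPM. It also held more Olfm4 (86.4 against 10.2 CPM) and Cfhr2 (37.6 against 0.75 CPM), so results that rest on this library are given with and without it. It held Xist beside Y-linked transcripts, and whether it contains cells of another culture was not tested. The targeted gene Braf had 38.4, 35.6, 47.2 and 41.9 CPM in COL and 19.7, 18, 22.2 and 18.6 CPM in SI, higher in COL (adjusted p = 0.0311), and Trp53 had 184, 201, 258 and 335 and 201, 162, 246 and 190.2 CPM with a difference that was not called (adjusted p = 0.563). Counts per gene do not tell the mutant from the wild-type transcript, so they do not check the recombination.

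**Figure D1:**
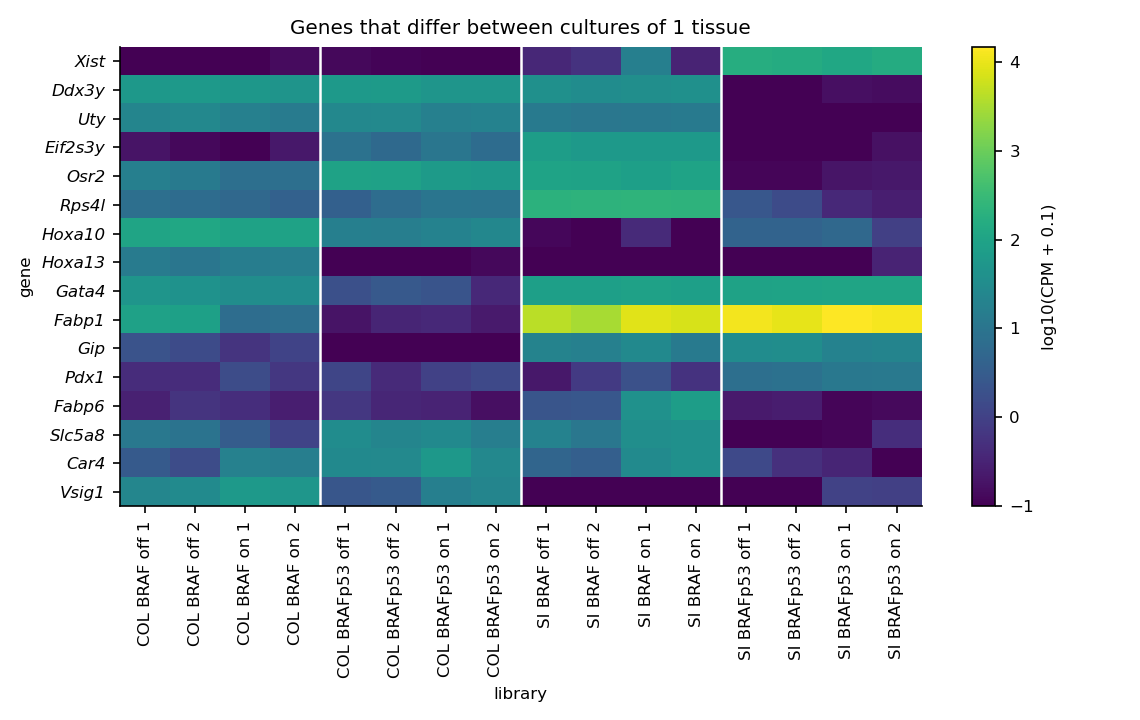
Levels of 16 genes in the 16 libraries of the BRAF and BRAFp53 cultures, as log10(CPM + 0.1) in color, with libraries on the x axis and genes on the y axis. White lines separate the 4 cultures. Xist marks the SI BRAFp53 culture and SI BRAF on replicate 1, and Ddx3y and Uty mark the other cultures.

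The first question was which genes differed between COL and SI once the oncogene was on. The 2 libraries of a culture and state were summed, so that 2 COL cultures stood against 2 SI cultures, with genotype as a term, and edgeR's quasi-likelihood test was used with Benjamini-Hochberg adjustment over 18928 genes. The on and off sums shared 1 estimate of the spread and entered as separate values, although those of a culture share its donor. In the on state 1822 genes (9.63%) were called at an adjusted p under 0.05, 853 higher in COL (4.51%) and 969 higher in SI (5.12%), and 1699 of them differed by at least 1 on the log2 scale. A fit of the on sums alone called 2149 genes, 1097 higher in COL and 1052 higher in SI, with 1621 shared with the 1822. In the off state 1031 genes (5.45%) were called, 568 higher in COL (3%) and 463 higher in SI (2.45%). All log2 differences below are COL minus SI, so that negative values are higher in SI. The medians over all genes were 0.05 in the on state and 0.07 in the off state. The on libraries of COL and SI did not overlap for 36.9% of all genes, so a lack of overlap alone is common here.

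To sort regional differences into those that persisted, vanished or arose, the change of the COL-SI difference from off to on was tested itself, in a model of the 16 unsummed libraries with a mean per tissue, genotype and state. This called 1466 genes (7.75%), with 439 shifting toward COL (2.32%) and 1027 toward SI (5.43%). Since the on and off libraries of a culture share its donor, the p-values of this test measure the spread between libraries of a culture and not between animals. A stricter fit on culture sums with culture as a term called 187 genes, 169 of which were among the 1466, and each named change below was also read there.

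Most regional differences that could be classed persisted. Of the genes called in the off state, 878 were also called in the on state in the same direction (4.64% of all genes). Among these, 688 had no called change, 398 of them higher in COL and 290 higher in SI. In 150 genes (0.792%) the difference widened, 27 of them higher in COL and 123 higher in SI, and in 40 genes it narrowed, 32 higher in COL and 8 higher in SI. Another 354 genes (1.87%) arose, in the sense that they were called on, not called off, and had a called change in the same direction, 95 higher in COL and 259 higher in SI. Only 64 genes (0.338%) vanished, 57 higher in COL and 7 higher in SI, and 3 genes turned. For 673 genes (3.56%) called in 1 state only, 587 in the on state and 86 in the off state, no change was called and their class is undetermined. The other 16956 genes (89.6%) were called in neither state. On culture sums the change was called in 7 of the 95 and 43 of the 259 genes that arose. It was called there in 16 of the 57 COL and 0 of the 7 SI genes that vanished. Of the genes that widened it was called in 3 of 27 and 34 of 123, and of those that narrowed in 11 of 32 and 1 of 8. Membership of a class depended on the fit: when libraries in place of cultures were the replicates, 345 genes arose, 42 of them shared with the 354.

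**Figure D2:**
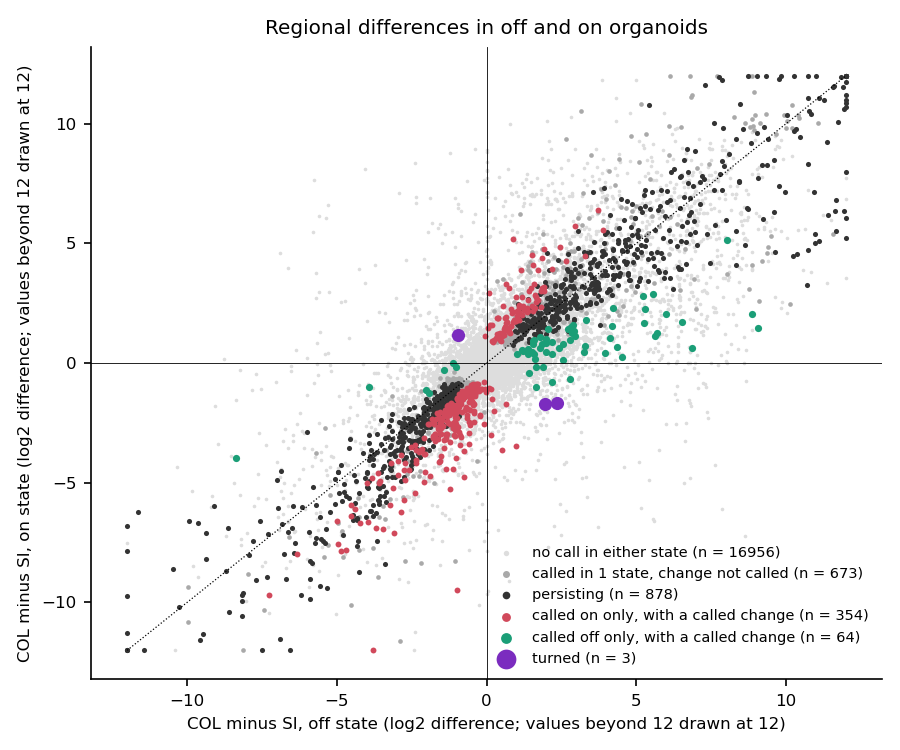
COL minus SI log2 difference of the 18928 genes tested, with the off state on the x axis and the on state on the y axis; each point is a gene, colored by class, and the dotted line marks equal differences. Genes that arose (354) lie mostly in the quadrants of equal sign, further from 0 in the on state, and vanished genes (64) lie closer to 0 on the y axis than on the x axis. Values beyond 12 in size are drawn at 12.

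The off-state values of the genes that arose were read in turn. The 95 genes that arose toward COL had a median difference of 2.12 in the on state and already 0.89 in the off state, where 94 pointed the same way and 66 had an unadjusted p under 0.05. The 259 that arose toward SI had medians of -2.14 and -0.98, with 251 pointing the same way in the off state and 191 at an unadjusted p under 0.05. In a fit of the off libraries of all 6 cultures, the p53 cultures included, 53 of the 95 and 133 of the 259 were called in the off state. Over all 18928 genes and both directions, this fit called 3436, and 4970 had an unadjusted p under 0.05 in the off state of the main fit. Most genes of this class thus had a smaller difference off that did not pass the test with 2 cultures per tissue. The 57 vanished COL genes had medians of 2.73 off and 0.85 on, and 51 of them still pointed toward COL in the on state. In 29 of the 57 the on-state difference had an unadjusted p under 0.05 (5337 of all 18928 genes), and in 31 the on libraries of the tissues did not overlap (36.9% of all genes). Vanished thus means here that the call was lost with a called change and not that the tissues were equal.

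The tissue that moved differed between the classes. Genes that vanished from COL had a median log2 change from off to on of 0.36 in COL and of 1.91 in SI, so that on average their level in SI approached that in COL. The 32 COL genes whose difference narrowed had medians of 0.63 in COL and 1.90 in SI. For the 259 genes that arose toward SI the medians were -0.23 in COL and 0.67 in SI, and for the 123 SI genes that widened they were -0.72 in COL and 0.52 in SI. The 95 genes that arose toward COL had medians of 0.73 in COL and -0.23 in SI. These values describe genes that were chosen by the same contrast and carry no test.

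Among abundant genes, the largest on-state differences toward COL were those of genes all but absent from SI. Keratin 4 (Krt4, ENSMUSG00000059668, chromosome 15, 101918535 to 101924735 in GRCm38), a keratin of stratified epithelium, had 60.2, 57, 168 and 134 CPM in COL and no count in the 4 SI libraries, at least 1599.8-fold higher against 3 counts per library. The cadherin gene Cdh13 had 40.4, 44.5, 176 and 142 CPM in COL and no count in SI, at least 1537-fold higher. Carbonic anhydrase 1 (Car1, ENSMUSG00000027556, chromosome 3, 14766216 to 14808368 in GRCm38), an enzyme of the colonic surface cell, had 5017, 3172, 9966 and 5386 CPM in COL and 0.264, 0.144, 0 and 0 CPM in SI (adjusted p = 0.0187). COL and SI values did not come near each other for any of these genes. Ctla2a and Sprr2h also had no count in SI on libraries and were at least 336- and 247-fold higher in COL. The protease inhibitor gene Wfdc2, the amino acid transporter gene Slc6a14 and the posterior Hox gene Hoxb9 were called in both states too. Slc6a14 had 234, 164, 257 and 172 CPM in COL and 0.484, 0.173, 0 and 0 CPM in SI. Cav1, the gene of the membrane protein caveolin 1, was called on (adjusted p = 0.0272) and missed the threshold off (adjusted p = 0.0555), although COL off libraries held 2.64, 1.34, 1.5 and 3.63 CPM and SI off libraries had no count.

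Toward SI, the largest differences included the N-acetyltransferase gene Nat8, which had 77, 72.4, 44.2 and 41.7 CPM in SI and at most 0.0468 CPM in COL (adjusted p = 0.00255). Slc28a1, which encodes a nucleoside transporter, and Slc2a7, a sugar transporter of the facilitative family, had at most 0.0153 and 0.173 CPM in COL, against 35.9, 30.4, 19.5 and 17.3 and 39.6, 44.7, 14.9 and 15.5 CPM in SI. The genes of the xenobiotic and retinol enzymes Ugt2a3 and Adh4 persisted with no called change (adjusted p = 0.0129 and 0.0342 in the on state), although the off-state call of Adh4 was lost without SI BRAF on replicate 1 (adjusted p = 0.0581). Other genes of this rank were uneven between the SI cultures. The alkaline phosphatase gene Akp3 had 45.8, 84.1, 1994 and 2734 CPM, Cfhr2 had 37.6, 0.75, 183 and 214 CPM and Mup20 0.132, 0.0866, 26.8 and 55.1 CPM in SI, each much higher in the BRAFp53 culture.

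Positional transcription factors were examined next. Hox genes pattern the body axis, and their posterior members are expressed toward the colon. Of 39 Hox genes 22 passed the filter on low counts, and 8 of these were called higher in COL (background 4.51%), with 6 persisting and 2 undetermined. Hox genes without counts in SI passed the filter only through COL, so their direction and the median of 4.66 are in part fixed by it. With no filter 37 were tested, 8 were called and the median was 3.60. The same limit holds for the medians of the other lists below. Hoxb9 (ENSMUSG00000020875, chromosome 11, 96271457 to 96276595 in GRCm38) had 44.4, 42.9, 74.8 and 72.6 CPM in COL and 0.198, 0.0577, 0 and 0 CPM in SI (adjusted p = 0.0259), so that all COL libraries lay far above all SI libraries. Hoxb5, Hoxb6, Hoxb7, Hoxb8 and Hoxd9 were called as well. Hoxb6 had 4.86, 5.23, 8.34 and 8.48 CPM in COL and no count in SI, at least 103-fold higher, and Hoxd9 was at least 23.8-fold higher. Hoxb3 and Hoxa11 passed too, but 52.9% and 35% of their exonic sequence overlaps other genes. Hoxb8 had 1.39, 1.5, 3.63 and 2.7 CPM in COL and no count in SI. Its call was lost without SI BRAF on replicate 1 (adjusted p = 0.0574), which itself held no count, while its fitted difference was no smaller, and 7 Hox genes were then called.

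Hoxa10 and Hoxa13 were uneven between COL cultures. Hoxa10 had 95.7, 92.9, 19.4 and 24.6 CPM in COL and 0.308, 0, 5.45 and 0.868 CPM in SI, and Hoxa13 15.6, 16, 0 and 0.0312 CPM in COL, nearly all of it in the BRAF culture. Neither passed the test (adjusted p = 0.276 and 0.715). Hoxa7 and Hoxa9 had 1.78, 0.0577, 7.54 and 3.62 and 0.726, 0, 4.1 and 2.15 CPM in SI, and of the SI BRAF libraries replicate 1 held nearly all of it.

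Of 20 regional and intestinal transcription factors 1 was called higher in COL, near the background of 4.51%, and 4 higher in SI (background 5.12%). Cdx2, the homeobox factor that maintains intestinal identity, was higher in COL with 132, 145, 119 and 101 against 56.9, 50.8, 37.6 and 43.7 CPM (log2 difference 1.33, SE 0.17, adjusted p = 0.0173) and was called off as well. The nuclear receptor gene Hnf4g and Creb3l3, a regulator of lipid metabolism, were among those called higher in SI in both states. Hnf4g had 8.4, 10, 23.3 and 22.5 CPM in COL and 219.7, 229, 164 and 160.1 CPM in SI (log2 difference -3.78, SE 0.48, adjusted p = 0.0173), and its difference widened from -2.82 off (adjusted p = 0.00508 for the change, adjusted p = 0.509 on culture sums). Creb3l3 differed by -4.56 on and by -4.97 off. Gata6 arose toward SI with a small step from -0.81 to -1.16, and its change of -0.37 was nearly as large but not called without SI BRAF on replicate 1 (-0.36, adjusted p = 0.0762) and on culture sums (-0.35, adjusted p = 1). Gata4, a factor of the proximal intestine, had 90.4, 81.5, 104 and 105 CPM in SI and 34.5, 32.3, 2.11 and 0.297 CPM in COL. The COL BRAF culture lay between SI and the COL BRAFp53 culture, and the regional difference did not pass (adjusted p = 0.253). Hnf4a, Cdx1, Klf5 and Isx, which are shared by both regions, had on-state differences between -0.38 and 0.12, none of them called.

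The enzymes and transporters of absorptive cells formed a large block that was higher in SI. In bulk organoids, fewer cells of a type and less RNA per cell cannot be told apart. Of 16 brush border hydrolases 11 were called in the on state, all 11 higher in SI (background 5.12% of genes called higher in SI), against 6 in the off state (background 2.45%). The median difference was -3.65 on and -1.51 off, beside 0.05 and 0.07 for all genes tested. In the test of the change, 11 shifted toward SI (background 5.43%), 4 of which were also called on culture sums, namely Sis, Treh, Dpp4 and Ggt1.

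Sucrase-isomaltase (Sis, ENSMUSG00000027790, chromosome 3, 72888557 to 72967863 in GRCm38), which cleaves sucrose and starch products, had 6026, 7080.0, 2435 and 2385 CPM in SI and 231, 199, 36.5 and 13.8 CPM in COL (log2 difference -5.77, SE 0.67, adjusted p = 0.0138). All SI libraries lay far above all COL libraries, and within COL the BRAFp53 culture was lowest. In the off state SI held 3329.9, 2567, 2668 and 2447 CPM and COL 395, 449.8, 119 and 138 CPM, and the difference widened by -2.24 (adjusted p = 0.000226). Trehalase (Treh, ENSMUSG00000032098, chromosome 9, 44673233 to 44686305 in GRCm38) was nearly binary, with 307, 376, 210.2 and 222 CPM in SI and 0.26, 0.711, 0.446 and 0.0156 CPM in COL (log2 difference -9.68, SE 0.29, adjusted p = 0.00255). Its off values were 148, 119, 259.8 and 218 CPM in SI and 2.38, 0.678, 3.89 and 3.93 CPM in COL, so that the COL BRAFp53 culture was lower and the SI BRAF culture higher on than off (adjusted p = 0.00068 for the change). Lactase (Lct, ENSMUSG00000026354, chromosome 1, 128284756 to 128328318 in GRCm38) was higher in SI in both states (adjusted p = 0.00694 on) but uneven between cultures, with 113, 124, 4.08 and 3.14 CPM in SI and 0.153, 0.0769, 0.0255 and 0 CPM in COL.

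The promoters of these disaccharidase genes are shown because the genes differed together. The sequences are the 250 bases before the annotated start in RefSeq (GRCm38.p6), written 5′ to 3′ on the strand of the gene. They were searched on both strands for TTTATG (a core of CDX sites), AGATAA (a core of GATA sites) and CAAAGTCCA (a site of HNF4), which are given in capitals where they occur on either strand. Sis lies on the minus strand at chr3:72967864-72968113, Lct on the minus strand at chr1:128328319-128328568 and Treh on the plus strand at chr9:44672983-44673232.
Sis: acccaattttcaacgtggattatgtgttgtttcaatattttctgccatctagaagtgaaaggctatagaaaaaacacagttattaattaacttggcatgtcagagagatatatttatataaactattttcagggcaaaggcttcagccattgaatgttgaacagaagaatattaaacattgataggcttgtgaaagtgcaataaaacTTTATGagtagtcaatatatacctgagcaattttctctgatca
Lct: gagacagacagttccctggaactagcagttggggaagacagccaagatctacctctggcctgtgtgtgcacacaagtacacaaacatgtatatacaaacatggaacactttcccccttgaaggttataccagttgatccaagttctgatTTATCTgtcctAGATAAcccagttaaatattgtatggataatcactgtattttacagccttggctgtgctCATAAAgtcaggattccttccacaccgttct
Treh: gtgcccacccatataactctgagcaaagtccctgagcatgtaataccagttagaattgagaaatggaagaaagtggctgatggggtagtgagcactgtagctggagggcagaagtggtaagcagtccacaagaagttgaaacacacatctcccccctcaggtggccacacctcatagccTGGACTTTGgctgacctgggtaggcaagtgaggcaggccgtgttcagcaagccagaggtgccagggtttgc
Sis held 1 CDX core, Lct 1 CDX core and 2 GATA cores, and Treh 1 HNF4 site. Of 13 brush border promoters in the table, 3 held TTTATG, 4 AGATAA and 2 CAAAGTCCA, against 10.8%, 9.99% and 0.384% of all 32851 promoters. The promoters of lipid absorption genes held the same 3 motifs in 4, 3 and 0 of 15 and those of nutrient transporters in 0, 2 and 1 of 12. Of 13 promoters of fetal and regenerative genes, which were higher in COL, 4 held TTTATG, 1 AGATAA and 0 CAAAGTCCA. A match of letters is a description and was not tested.

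The other hydrolases of the brush border were mostly higher in SI as well. The maltase-glucoamylase gene Mgam had 3286, 4038, 906 and 931 CPM in SI and 263, 274, 197 and 179 CPM in COL (log2 difference -3.08, SE 0.43, adjusted p = 0.0197), and it missed the threshold in the off state (-1.36, adjusted p = 0.113). Dpp4, Ace and Enpep, a dipeptidyl peptidase, the angiotensin-converting enzyme and an aminopeptidase, also arose toward SI with differences of -3.28, -4.45 and -2.71, of which Enpep overlapped between the SI BRAFp53 and the COL BRAF culture and lost its call at a difference no smaller without SI BRAF on replicate 1 (log2 difference -2.78, adjusted p = 0.0604). Ggt1, a glutamyl transferase, and Mep1b, a meprin subunit, persisted and widened, with 894, 1124, 534 and 568 CPM against 10.9, 8.61, 3.23 and 2.5 CPM for Ggt1 (log2 difference -7.17, SE 0.71, adjusted p = 0.0109). Anpep, aminopeptidase N, reached 2746, 3378, 458 and 443 CPM in SI and 59.1, 60.4, 107 and 78 CPM in COL. Its SI cultures were far apart, and the on-state difference missed the threshold (adjusted p = 0.0571) although the libraries of the tissues did not overlap. The alkaline phosphatase gene Alpi was called on (-4.30) and missed the threshold off. Mep1a had 31.3, 22.7, 22.1 and 13.5 CPM in COL and 21.5, 25, 13 and 15.4 CPM in SI, and these values overlapped.

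Transporters followed with 9 of 12 tested members called in the on state and 7 in the off state, all of them higher in SI (backgrounds 5.12% and 2.45%, median -4.01 on, -2.95 off). The glucose transporter gene Slc5a1 (ENSMUSG00000011034, chromosome 5, 33104219 to 33162870 in GRCm38) had 4256, 4642, 1939 and 1914 CPM in SI and 161, 158, 125 and 111 CPM in COL (log2 difference -4.46, SE 0.45, adjusted p = 0.0111), and its difference widened from -2.57 off. The fructose transporter gene Slc2a5 had 318, 345, 225 and 225 CPM in SI and 1.04, 2.86, 2.38 and 0.718 CPM in COL (log2 difference -7.35, SE 0.36, adjusted p = 0.00495). For both, the 4 SI values lay far above the 4 COL values in both states. The glucose exporter gene Slc2a2 was called on (-7.97, adjusted p = 0.037) and missed the threshold off (-6.34, adjusted p = 0.0747). The peptide transporter gene Slc15a1 widened from -1.78 to -3.45. Slc6a19, a transporter of neutral amino acids, was the exception, since its difference narrowed from -4.60 to -3.56 while it remained called. The change of 1.04 was of similar size but not called without SI BRAF on replicate 1 (0.95, adjusted p = 0.0637) and on culture sums (1.05, adjusted p = 0.389). Of the 7 called changes of this list, 2 were called on culture sums, those of Slc2a5 and Slc15a1.

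Lipid absorption had the SI-ward median furthest from 0 of the lists. Of 20 genes 13 were called in the on state and 7 in the off state, all of them higher in SI (backgrounds 5.12% and 2.45%, median -5.17 on, -3.37 off), and 13 shifted toward SI (background 5.43%), 4 of them also on culture sums (Apoa1, Apoa4, Apoc3 and Mttp). Apolipoprotein C3 (Apoc3, ENSMUSG00000032081, chromosome 9, 46232933 to 46235636 in GRCm38), a regulator of triglyceride clearance, had 718, 673, 400.1 and 366 CPM in SI and 1.89, 1.25, 0.497 and 0.359 CPM in COL (log2 difference -9.31, SE 0.43, adjusted p = 0.00495). Off, SI held 186, 145, 359 and 304 and COL 4.41, 4.13, 6.05 and 6 CPM, and the change of -3.78 was called (adjusted p = 1.43e-07, adjusted p = 0.000622 on culture sums). Apoa1, the main protein of high-density lipoprotein, had 18457, 22333, 6419 and 6573 CPM in SI and 279, 325, 185 and 115 CPM in COL and widened from -3.35 to -5.80. SI values were higher on than off in all 4 libraries, and those of the SI BRAF culture were highest.

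The packaging factor Mttp, which loads lipid onto apolipoprotein B, arose toward SI, with 2783, 3628, 2231 and 2696 CPM in SI and 104, 78.9, 9.52 and 7.35 CPM in COL (log2 difference -6.69, SE 1.35, adjusted p = 0.0432). Its off difference of -4.23 did not pass (adjusted p = 0.116). Apob, the cholesterol importer gene Npc1l1 and Dgat2, an enzyme of triglyceride synthesis, also arose toward SI, as did Apoa4 and Apoc2, of whose exons 69.8% and 79.5% overlap other genes. Fabp2 and Rbp2, carriers of fatty acids and retinol, persisted without a called change at -3.14 and -6.91. Fabp1, a carrier of fatty acids, with 8462, 7063, 14599.7 and 12376 CPM, had 6.88, 7.55, 0.293 and 0.141 CPM in COL, and its regional difference of -12.86 missed the threshold (adjusted p = 0.0972), as the COL cultures were far apart. The scavenger receptor gene Scarb1 was the only member with a positive difference (1.66, adjusted p = 0.51).

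**Figure D3:**
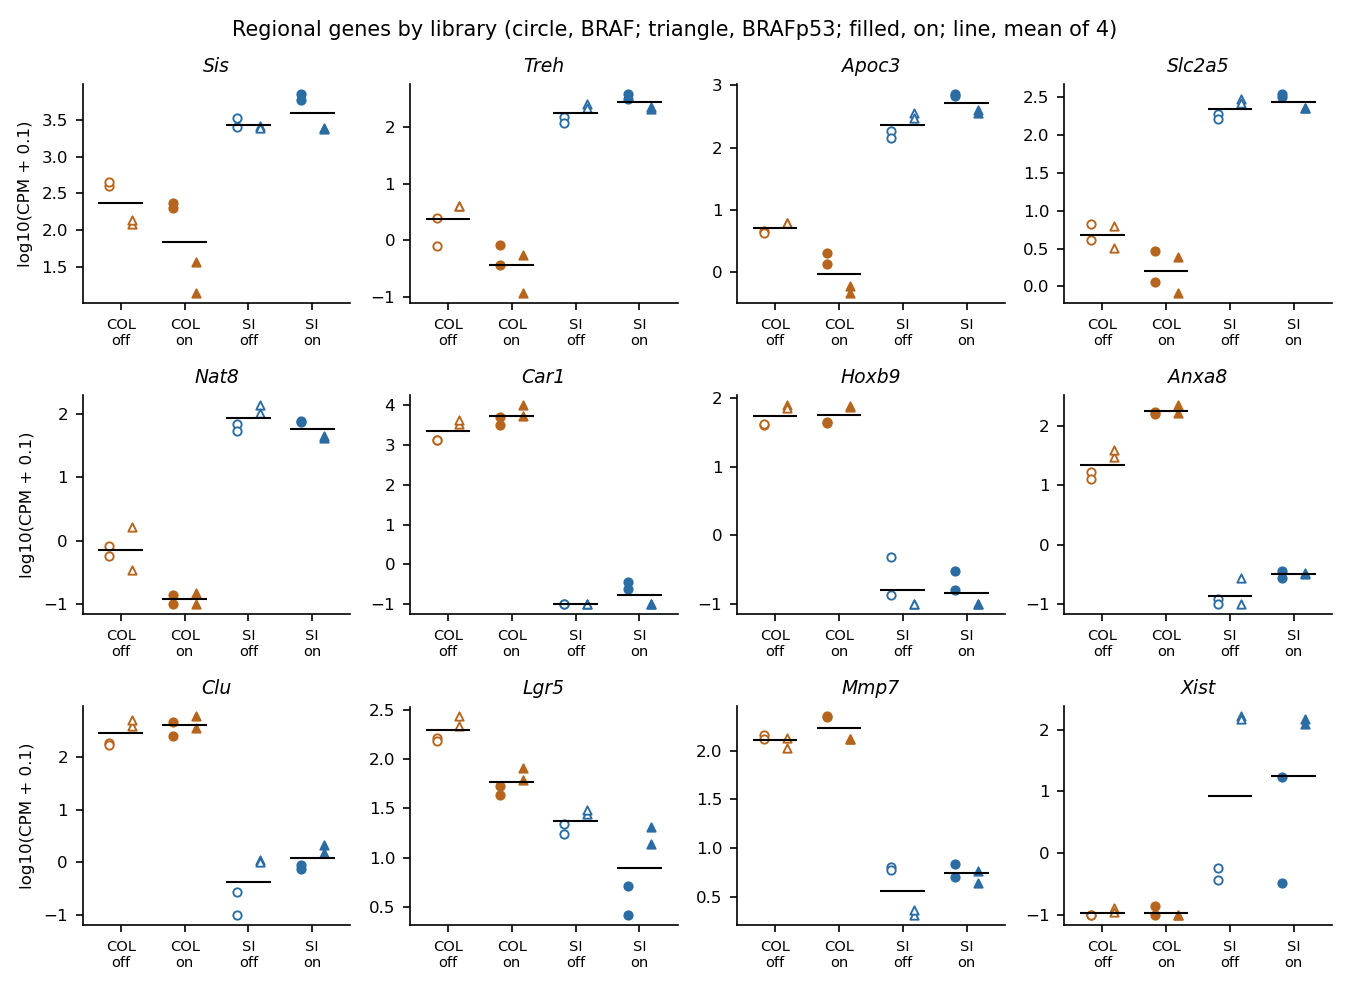
Levels of 12 genes by library as log10(CPM + 0.1) on the y axis, for off (open) and on (filled) libraries of COL and SI on the x axis. Circles are BRAF, triangles are BRAFp53, and lines are means of the 4 libraries. Sis, Treh, Apoc3 and Slc2a5 lie lower in COL on than in COL off on average, and Nat8, Car1 and Hoxb9 separate the tissues in both states.

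Genes of iron and calcium uptake gave 0 on-state calls among 8 members in edgeR, where 2 had an unadjusted p under 0.05, and DESeq2 called 1 higher in COL and 2 higher in SI. Over all 18928 genes edgeR called 9.63%, 5337 genes had an unadjusted p under 0.05 and DESeq2 called 4210. The iron exporter gene Slc40a1 shifted toward SI, from a difference of 3.20 off to 1.64 on (adjusted p = 0.000908, adjusted p = 0.04 on culture sums). Of 6 genes of bile acid handling 1 was called, higher in SI (background 5.12%). This was Nr0b2, a nuclear receptor induced by bile acids, with 0.55, 1.59, 12 and 7.45 CPM in SI and no count in COL, at least 114-fold higher in SI. Fabp6, the ileal bile acid carrier, had 41.3, 76.4, 0.0199 and 0.0334 CPM in SI and was found in the SI BRAF culture.

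Of 17 tested genes of ion and water transport in the colon, 1 was called higher in COL (Car1), near the background of 4.51%, and 3 higher in SI (background 5.12%). The latter were Slc26a3, a chloride exchanger (117, 141, 85.3 and 109.8 CPM in SI, 33.2, 23.1, 14.1 and 8.84 CPM in COL), Guca2b, the gene of uroguanylin (log2 difference -5.72, SE 0.59, adjusted p = 0.0115), and the potassium channel gene Kcnk5, which arose (log2 difference -2.67, SE 0.39, adjusted p = 0.0222, adjusted p = 0.389 for the change on culture sums). Guca2b had 2172, 2515, 617 and 665 CPM in SI and 23.8, 22.8, 26.9 and 22.8 CPM in COL and widened from -3.61. Car2 had 622, 486, 531 and 359 CPM in COL and 2.2, 1.01, 72.7 and 67.2 CPM in SI. Its difference shifted toward SI by -3.25 (adjusted p = 2.85e-06, adjusted p = 0.0018 on culture sums), while the on-state difference did not pass (adjusted p = 0.182). Aqp8, a water channel of the colonic surface, was low with 3.09, 0.769, 9.13 and 11.5 CPM in COL.

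Genes of secretory lineages that were called were higher in COL. Of 16 goblet cell genes 5 were called, all 5 higher in COL (background 4.51%, median 1.09 on, 1.35 off). Spdef, the transcription factor of goblet cells, had 26.7, 29.6, 45.7 and 50.4 CPM in COL and 6.45, 6.72, 14 and 17 CPM in SI (log2 difference 1.79, SE 0.27, adjusted p = 0.0236) with no called change. Clca1, a secreted regulator of mucus, remained higher in COL, but its difference narrowed from 2.71 to 1.33 (adjusted p = 0.0101, adjusted p = 0.0662 on culture sums). Retnlb, a colonic antibacterial protein, had 1.13, 0.769, 5.59 and 4.42 CPM in COL and no count in SI, at least 45.4-fold higher. Spink4 was called on, and the membrane mucin gene Muc4 arose (2.13) but lost its call without SI BRAF on replicate 1, where its difference was no smaller (log2 difference 2.46, adjusted p = 0.0549). Muc2, the main gel-forming mucin, had 560.0, 490.1, 955 and 821 CPM in COL and 80.6, 156, 75.1 and 129 CPM in SI. The libraries did not overlap, and the difference of 2.60 missed the threshold (adjusted p = 0.0657). In the test of the change, 7 of the 16 shifted toward SI (background 5.43%) and 1 toward COL (background 2.32%), and only that of Zg16 was called on culture sums.

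Paneth cells, which secrete antimicrobial peptides at the crypt base of the small intestine, gave 3 calls of 15 tested genes, all 3 higher in COL in both states (backgrounds 4.51% on and 3% off). The matrix protease gene Mmp7 had 221, 225, 131 and 132 CPM in COL and 4.97, 6.78, 5.71 and 4.31 CPM in SI (log2 difference 4.94, SE 0.42, adjusted p = 0.00786), Ang4 differed by 3.96 and Pla2g2a by 3.78. The lysozyme gene Lyz1 was higher in every COL library (258, 230.5, 732 and 864 CPM against 58, 40.7, 76.4 and 51.7 CPM) and missed the threshold (adjusted p = 0.07). The defensin gene Defa24 had 131, 139, 216 and 209 CPM in COL and 81.9, 81.7, 197 and 126 CPM in SI, which overlapped, and the near-identical copies of this family make single members uncertain.

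Of 15 enteroendocrine genes, 4 were called, all 4 higher in COL (background 4.51%). The peptide hormone gene Pyy had 154, 125, 134 and 76.9 CPM in COL and 17.1, 18.7, 3.1 and 1.89 CPM in SI (log2 difference 4.15, SE 0.68, adjusted p = 0.027). Its difference narrowed from 6.66 off, where SI held 0.816, 0.351, 0.0192 and 0.442 CPM (adjusted p = 0.00706 for the change on culture sums). Gcg, the precursor of glucagon-like peptides, differed by 3.85 (adjusted p = 0.00883), and the granule protein gene Chga widened from 1.38 to 2.67, which was not called on culture sums and whose off-state call was lost without SI BRAF on replicate 1 (adjusted p = 0.058). Nts was called on only. Gip, a hormone of the proximal intestine, had 27.9, 13.4, 19.6 and 21.7 CPM in SI and 0.489, 1, 0 and 0 CPM in COL, where the BRAFp53 culture had no count, and did not pass (adjusted p = 0.145).

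Among 19 genes of mucosal defence, 2 were called higher in COL, Saa1 and Nox1 (background 4.51%), and 5 higher in SI (background 5.12%). Reg3b, an antibacterial lectin, arose toward SI with 60.9, 25.5, 126 and 142 CPM in SI and 8.51, 8.19, 52.1 and 45.3 CPM in COL (log2 difference -2.01, SE 0.28, adjusted p = 0.0194). Off, the libraries of the tissues overlapped at 86.1, 77.3, 174 and 350.3 CPM in SI and 103, 96.6, 282 and 346 CPM in COL, while on, COL was lower than SI within each genotype and only SI BRAF replicate 2 fell below the COL BRAFp53 libraries (adjusted p = 0.00879 for the change on culture sums). Nlrp6, a sensor of the inflammasome family, arose the same way with 288, 349, 314 and 336 CPM in SI and 97.1, 99.4, 61.5 and 62.4 CPM in COL, from -0.42 off to -2.10 on. Reg3a and the chemokine gene Ccl25, which attracts lymphocytes to the small intestine, were higher in SI in both states, and Reg3g was called on only. The nitric oxide synthase gene Nos2 vanished, from 2.18 off to 0.39 on (adjusted p = 0.0582 for the change on culture sums). Its off-state call was lost without SI BRAF on replicate 1 (adjusted p = 0.0514).

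Stem cell genes and targets of Wnt signaling were read with the difference in medium in mind, since the COL medium held a Wnt ligand and a GSK3 inhibitor. Of 23 genes 9 were called higher in COL (background 4.51%) and 1 higher in SI, near the background of 5.12% (median 1.59 on, 1.40 off). Lgr5 (ENSMUSG00000020140, chromosome 10, 115450311 to 115587780 in GRCm38), the receptor that marks crypt base stem cells, had 42.8, 53.6, 60.9 and 80.2 CPM in COL and 5.02, 2.51, 20.1 and 13.7 CPM in SI (log2 difference 2.76, SE 0.40, adjusted p = 0.0219). Within every culture the on values lay below the off values, which were 164, 151, 269.7 and 216 CPM in COL and 17.1, 21.6, 27.9 and 30.1 CPM in SI, so that the difference persisted at a lower level without a called change. Rnf43, a Wnt feedback ligase, Cd44, Tcf7, Ephb3 and Slc12a2 persisted without a called change as well, with on-state differences between 1.32 and 2.65. Without SI BRAF on replicate 1 the off-state calls of the list, all higher in COL (background 3%), fell from 9 to 4, while those over all genes fell from 1031 to 832, with those of Tcf7, Ephb3 and Slc12a2 lost at off-state differences of 2.25, 1.59 and 1.32, since the on and off sums share 1 estimate of the spread. Tnfrsf19 persisted too and had 3.21, 3.25, 8.2 and 11.2 CPM in COL and at most 0.219 CPM in SI. Ascl2 and Znrf3 were called on only, and Ascl2 lost its call without SI BRAF on replicate 1, with a difference of 2.36 in all libraries (log2 difference 2.66, adjusted p = 0.0508 without it).

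Olfm4, a stem cell marker of the small intestine, was the member called higher in SI. It had 86.4, 10.2, 125 and 79.4 CPM in SI and 0.993, 0.961, 0.0382 and 0.593 CPM in COL (log2 difference -7.09, SE 0.77, adjusted p = 0.0124), against 208, 229, 155 and 254 and 36.5, 22.7, 28.8 and 15.3 CPM off (-3.09, adjusted p = 0.0542). COL on libraries were nearly empty of it. The on-state call was lost without SI BRAF on replicate 1 (log2 difference -5.84, adjusted p = 0.07), whereas the change was called on culture sums (adjusted p = 0.00126). Of 16 proliferation genes, 0 were called by edgeR in the on state, 4 had an unadjusted p under 0.05, DESeq2 called 0 and limma-voom 1 (median -0.08). Over all 18928 genes, edgeR called 9.63% in the on state, 5337 had an unadjusted p under 0.05, DESeq2 called 4210 and limma-voom 5872.

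Of 23 tested genes of the list of ERK targets and feedback, which also holds the upstream scaffold gene Ksr1, 10 were called higher in COL in the on state (background 4.51%), 1 (Ksr1) was called higher in SI (background 5.12%) and 12 were not called (median 1.78), against 5 and 1 in the off state (backgrounds 3% and 2.45%, median 1.09). The immediate early transcription factor gene Fos had 200.4, 193, 158 and 105 CPM in COL and 37.3, 49.1, 25.6 and 25.4 CPM in SI (log2 difference 2.25, SE 0.17, adjusted p = 0.00734) and was called off too. Egr1, of the same kind, arose with 44.2, 47.7, 26.5 and 25.5 CPM in COL and 7.66, 6.35, 5.85 and 6.45 CPM in SI (log2 difference 2.32, SE 0.24, adjusted p = 0.0119), from a difference of 1.09 off. COL values were higher on than off, and SI values lower. Hbegf, a ligand of the EGF receptor, and Dusp4, a phosphatase that switches off ERK, arose as well (2.39 and 1.78), and Ier3 widened from 1.77 to 2.89. Areg, Epha2 and Phlda1 persisted, with 33% of the exonic sequence of Phlda1 overlapping another gene, and Spry4 and Fosl1 were called on only. On culture sums the 5 called changes of this list had adjusted p-values between 0.18 and 0.997.

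Negative feedback regulators of ERK were divided, since Dusp4 and Spry4 were called higher in COL (1.78 and 1.83) and others of the Dusp, Spry and Spred families were not called. Dusp6 had 129, 111, 159 and 144 CPM in COL and 72.4, 82.5, 89 and 103 CPM in SI, against 33.1, 42.6, 34.5 and 33.3 and 7.71, 9.87, 24.6 and 26.1 CPM off, so that every on library of either tissue lay above every off library. Its on-state difference of 0.59 did not pass (adjusted p = 0.372), and its change of -0.66 was toward SI (adjusted p = 0.012, adjusted p = 0.997 on culture sums). Spry2, Spred1, Spred2 and Errfi1 had on-state differences between 0.09 and 0.42, none of them called. Ksr1, a scaffold of the RAF-MEK-ERK module, was the member higher in SI, with 42.1, 46.1, 23.8 and 27.7 CPM against 12, 15.1, 8.18 and 5.61 CPM (log2 difference -1.86, SE 0.19, adjusted p = 0.0118), and persisted from -2.13 off.

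Fetal and regenerative genes held many calls. Of 20 genes 14 were called in the on state (background 4.51%) and 14 in the off state (background 3%), 12 of them in both, and all of these were higher in COL (median 5.19 on, 6.31 off). Clusterin (Clu, ENSMUSG00000022037, chromosome 14, 65968483 to 65981547 in GRCm38), a marker of revival stem cells, had 468, 258, 367 and 597 CPM in COL and 0.638, 0.779, 2.07 and 1.44 CPM in SI (log2 difference 8.49, SE 0.61, adjusted p = 0.00734). Anxa8 had 171, 158, 221 and 167 CPM in COL and 0.176, 0.26, 0.219 and 0.234 CPM in SI (log2 difference 9.62, SE 0.37, adjusted p = 0.00305), and COL already held 16.5, 12.6, 29.7 and 39.1 CPM off. F3, Ccn1, Il1rn and Gja1 also persisted without a called change, and the off-state call of Il1rn was lost without SI BRAF on replicate 1 (adjusted p = 0.0512). Spp1 was called in both states at low levels (0.397, 0.135, 1.81 and 6.26 CPM in COL, no count in SI).

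Within this list the called change was toward SI in 6 genes (background 5.43%) and toward COL in 2 (background 2.32%), and 4 of the former were called on culture sums. The annexin gene Anxa3 had 522, 447, 589.5 and 467 CPM in COL and 63.7, 82.8, 42 and 48.9 CPM in SI (log2 difference 3.09, SE 0.28, adjusted p = 0.00879), against 154, 188, 194 and 190.4 and 2.58, 1.4, 3.09 and 2.8 CPM off. All on values lay above the off values of the same tissue, and the SI values were further above. The change of -3.14 was called (adjusted p = 9.37e-07, adjusted p = 0.0018 on culture sums). Mesothelin (Msln), a surface protein found in many carcinomas, narrowed from 6.41 to 3.93, with 18.1, 25.7, 18 and 14.9 CPM in SI on against 0.839, 0.509, 0.673 and 0.73 CPM off. Ly6a narrowed from 8.00 to 5.96. Anxa1 narrowed from 7.85 to 7.24 and S100a6 lost its call, from 3.32 to 1.80, but these changes were not called on culture sums (adjusted p = 0.983 and 0.156). Nid1, a basement membrane gene, was not called when on, with all SI libraries above all COL libraries (43.9, 43.6, 41.5 and 26.9 CPM in COL, 50.8, 66, 49.5 and 66.9 CPM in SI). Krt7 and Krt23 moved the other way and arose toward COL with 2.17 and 2.12, changes that were not called on culture sums.

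Genes of gastric type and of serrated lesions were mostly not resolved by region. Of 13 tested, 1 was called higher in COL (Cav1) and 2 higher in SI, against backgrounds of 4.51% and 5.12%. Tm4sf4 arose toward SI with 3706, 4968, 2755 and 3586 CPM in SI and 1067, 762, 492 and 352 CPM in COL (log2 difference -2.61, SE 0.32, adjusted p = 0.0157), against 147, 108, 102 and 87.3 and 118, 97.9, 67.7 and 40.7 CPM off. Every library was higher on than off, and SI libraries more so. The call of Gkn3 rested on SI BRAF on replicate 1, without which its log2 difference moved from -2.00 to -0.57. Anxa10 had 90.3, 49.2, 33.9 and 44.1 CPM in COL and 33.2, 40.3, 206 and 261 CPM in SI, which overlapped.

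**Figure D4:**
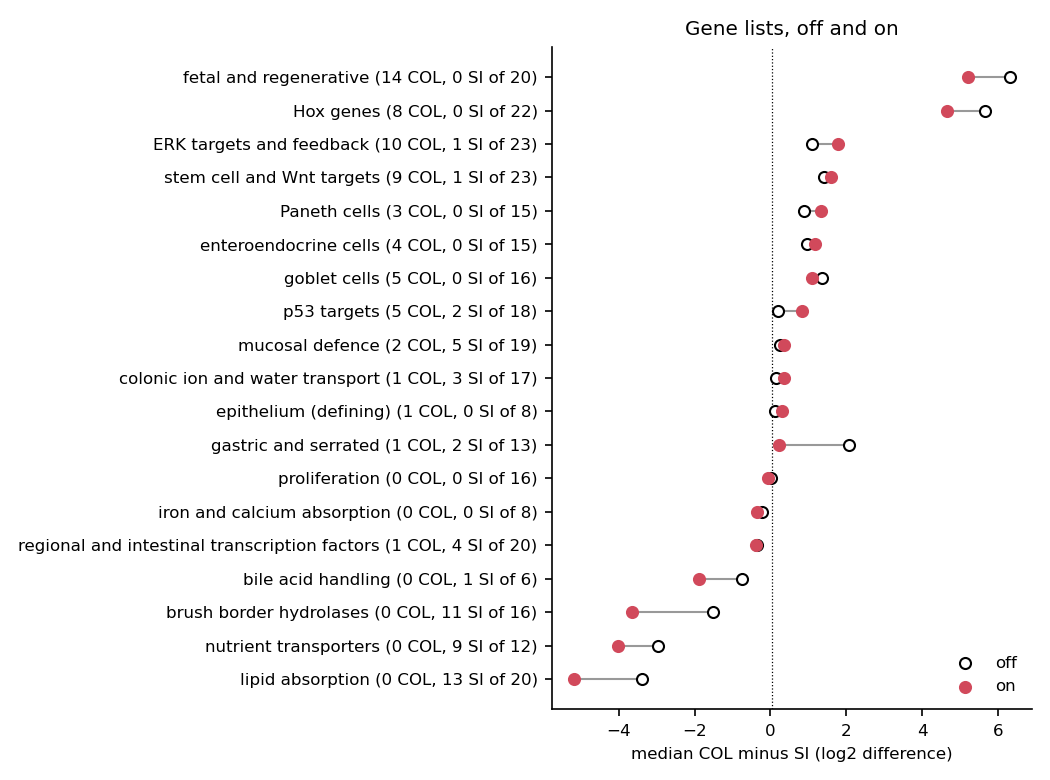
Median COL minus SI log2 difference (x axis) of the tested members of 19 gene lists (y axis), off (open) and on (filled), with the on-state counts called higher in COL and in SI beside each name; the dotted line is the median of all genes, 0.05. Brush border, transporter and lipid genes lie further toward SI on than off, and fetal and regenerative genes lie furthest toward COL in both states.

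Targets of p53 were examined because 1 of the 2 genotypes carried p53R172H. In the off state 0 of 18 were called by edgeR, 5 had an unadjusted p under 0.05, and DESeq2 called 3 higher in COL and 2 higher in SI. Over all 18928 genes edgeR called 5.45% in the off state, 4970 genes had an unadjusted p under 0.05 and DESeq2 called 3629. In the on state edgeR called 5 higher in COL and 2 higher in SI (backgrounds 4.51% and 5.12%). In the test of the change 9 shifted toward COL (background 2.32%) and 1 toward SI. Gdf15, a stress-induced cytokine, had 15.7, 23.1, 13.3 and 14.8 CPM in COL and 0.77, 2.45, 1.33 and 3.94 CPM in SI (log2 difference 2.94, SE 0.47, adjusted p = 0.0263), from 0.09 off. Phlda3 and Zmat3 arose with 2.77 and 1.48, and Ccng1 had 150.2, 155, 143 and 151 CPM in COL and 72.6, 75.9, 56.1 and 59.8 CPM in SI (log2 difference 1.13, SE 0.21, adjusted p = 0.034). Both genotypes showed the same direction in these genes. Cdkn1a, the cell cycle inhibitor p21, had 598, 640.4, 419.8 and 298 CPM in COL and 600.2, 755, 404 and 439 CPM in SI and was not called (adjusted p = 0.656). Sesn1 and Fas were higher in SI, and the change of Sesn1 of -0.57 was not called without SI BRAF on replicate 1 (-0.51, adjusted p = 0.0588). Of the 10 called changes, only that of Gdf15 was called on culture sums.

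The regional difference turned in 3 genes (0.0158%). The actin-associated protein gene Pdlim7 (ENSMUSG00000021493, chromosome 13, 55495795 to 55513676 in GRCm38) had 20.6, 16.5, 14.8 and 28.7 CPM in COL and 39.7, 34.5, 44.3 and 35.4 CPM in SI when off, higher in SI (log2 difference -0.96, SE 0.17, adjusted p = 0.0465). When on it had 63.5, 67.9, 58.3 and 57.4 CPM in COL and 25.3, 25.3, 26 and 26.9 CPM in SI, higher in COL (log2 difference 1.19, SE 0.18, adjusted p = 0.0221). The libraries of the tissues did not overlap in either state, and the change held on culture sums (adjusted p = 0.00482). Gml turned the other way, from 2.58, 2.82, 3.42 and 1.05 CPM in COL and 0.363, 0.808, 0.577 and 0.134 CPM in SI to 9.96, 8.21, 6.39 and 6.06 and 34.2, 39.4, 13 and 15.5 CPM (2.34 off, -1.65 on). Its neighbor Gml2, a near copy whose reads the counting may split, was the last of the 3. Without SI BRAF on replicate 1 the off-state call of Pdlim7 was lost at an off-state difference of -0.96 (adjusted p = 0.0528). The number of turned genes fell to 1 when SI BRAFp53 off replicate 1 was left out.

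Among the genes that vanished from COL, Slc7a11, the cystine importer, had 15.1, 16.9, 15.8 and 21.7 CPM in COL and 2.13, 2.21, 4.48 and 3.01 CPM in SI off, and 51.3, 44.5, 60.9 and 55.7 and 21.7, 36.5, 53.8 and 97.6 CPM on (2.56 off, 0.12 on, adjusted p = 0.00258 for the change on culture sums). The on libraries of the tissues overlapped. Kdelr3, a receptor that retrieves proteins to the endoplasmic reticulum, went from 1.64 to -1.01, and the nucleoside transporter gene Slc28a2 from 2.77 to -0.68. Ecm1, Bicd1 and Psca completed the 6 largest changes, all 6 also called on culture sums, although the off-state call of Ecm1 was lost without SI BRAF on replicate 1 (adjusted p = 0.0593) and Bicd1 and Psca kept on-state differences of 2.88 and 2.82 that missed the threshold (adjusted p = 0.0811 and 0.0575). Of the genes that vanished from SI, Pld2, Plac8, Mgst3, Map2k3 and Acot11 had the 5 largest changes, with adjusted p-values between 0.259 and 0.829 on culture sums. Without SI BRAF on replicate 1 the off-state calls of Pld2, Plac8 and Map2k3 (adjusted p = 0.0552, 0.0542 and 0.0527) and the change of Acot11 (adjusted p = 0.0607) were lost, so that 4 of these 5 left the class. Plac8 had 923, 749, 797 and 527 CPM in COL and 1121, 1170.3, 698 and 667 CPM in SI on, against 286, 273, 278 and 270.4 and 664, 559, 871 and 847 CPM off.

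The 6 largest shifts among genes that arose toward SI were all called on culture sums. The carboxylesterase gene Ces2b (ENSMUSG00000050097, chromosome 8, 104831572 to 104840093 in GRCm38) had 13.9, 10.6, 8.17 and 3.19 CPM in COL and 4.72, 4.02, 9.09 and 6.09 CPM in SI off, which overlapped, and 12.1, 7.77, 5.62 and 1.45 and 118, 127, 49.3 and 38.4 CPM on (log2 difference -3.62, SE 0.49, adjusted p = 0.0191). H2-Q1, a nonclassical class I histocompatibility gene, had 65.7, 78, 34.5 and 38.7 CPM in SI and 5.32, 2.83, 1.68 and 1.09 CPM in COL (log2 difference -4.44, SE 0.62, adjusted p = 0.0198), from -1.35 off. The serotonin transporter gene Slc6a4, the lipid droplet enzyme gene Hsd17b13 and the cytochrome gene Cyp3a25 had on-state differences of -6.95, -6.23 and -6.90, with off-state differences of -3.46, -2.87 and -3.70. The fatty acid transporter gene Slc27a2, the ectoenzyme gene Bst1 and the carnitine synthesis gene Bbox1 were among the SI genes that widened most. Slc27a2 had 0.0153, 0.308, 0.0127 and 0.0781 CPM in COL on and 1.7, 1.47, 5.02 and 4.98 CPM off, and 27.1, 28.7, 42.5 and 51.8 CPM in SI on and 41.5, 35.4, 72.3 and 74.8 CPM off.

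Toward COL, the collagen gene Col18a1 (ENSMUSG00000001435, chromosome 10, 77052178 to 77166548 in GRCm38) had 79.5, 69.9, 48.1 and 41.9 CPM in COL and 0.528, 0.519, 1.93 and 1.92 CPM in SI on (log2 difference 5.74, SE 0.81, adjusted p = 0.02), and 3.33, 4.24, 5.69 and 5.46 and 1.2, 0.369, 0.346 and 0.538 CPM off. COL on libraries lay far above all others. Aldh1a3, which makes retinoic acid, and the progestin receptor gene Paqr5 arose with 6.37 and 3.87, both also called on culture sums, unlike Col18a1, Ncs1, Fam189a2 and Dclk1 (adjusted p between 0.0667 and 0.124). Dclk1 differed by 3.94, and without SI BRAF on replicate 1 its difference was larger but not called (log2 difference 4.69, adjusted p = 0.0609). Trim29 widened from 3.92 to 7.33, with 48.4, 45.7, 57.7 and 47.1 CPM in COL on, and Amotl1, a regulator of YAP, narrowed as SI libraries that had no count off held 0.638, 0.173, 0.219 and 0.718 CPM on.

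**Figure D5:**
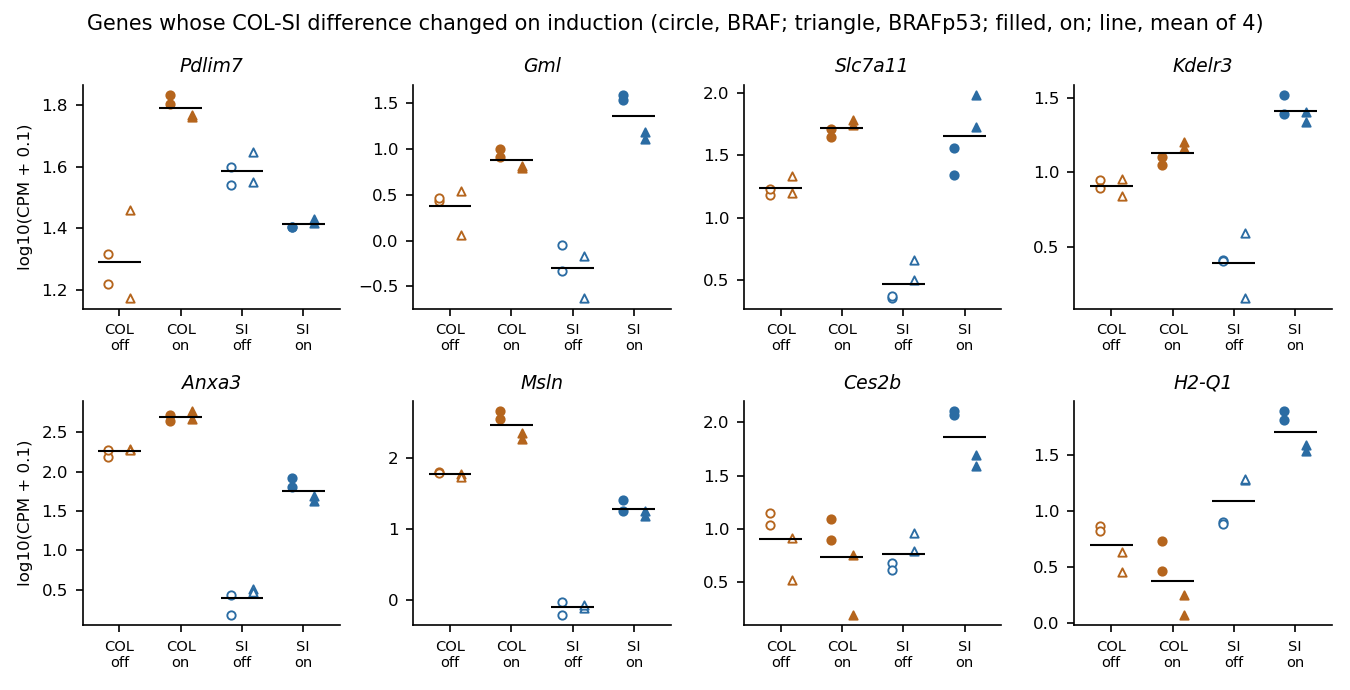
Levels of 8 genes whose COL-SI difference changed, as log10(CPM + 0.1) on the y axis for off (open) and on (filled) libraries on the x axis. Circles are BRAF, triangles are BRAFp53, and lines are means of the 4 libraries. Pdlim7 and Gml cross over, Slc7a11 and Kdelr3 have SI points closer to COL points on than off, and Ces2b and H2-Q1 separate the tissues in the on state.

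The p53 cultures, 1 per tissue and used above only in the off-state fit of all 6 cultures, allowed the differences to be read in other cultures that had the same dose and day without a BRAF allele. As a description over 2 libraries per group, 850 of the 853 genes called higher in COL in the BRAF-bearing on state and 956 of the 969 called higher in SI had the same sign in p53 on libraries, where 74.4% of all genes shared the sign. Of the 354 genes that arose, 346 had the same sign in p53 on libraries and 330 in p53 off libraries. Their medians were 1.40 and 1.11 there, against 2.13 in the BRAF-bearing on libraries and 0.97 in the off libraries of the same cultures. Of the 64 genes that vanished, 63 kept their sign, with a median difference of 2.63 in p53 on libraries against 0.87 in BRAF-bearing on libraries and 2.56 in their off libraries.

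The regional difference of the on state was not the same in both genotypes. The COL-SI difference in BRAFp53 organoids was tested against that in BRAF organoids, and 2347 genes (12.4%) were called, 1357 with a larger difference toward COL in BRAFp53 (7.17%) and 990 toward SI (5.23%). The count fell to 1334 without COL BRAF on replicate 2 and to 1410 without SI BRAFp53 on replicate 2. Among the 1327 with an absolute log2 value of at least 1, 627 were toward COL and 700 toward SI. Since each genotype is 1 culture per tissue, genotype and donor cannot be told apart, and the sex-linked Eif2s3y and Uty were among the largest. Brush border genes illustrate this, for Lct, Anpep and Naaladl1 were high in the SI BRAF culture and Akp3 and Tmprss15 in the SI BRAFp53 culture.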

How the data were processed

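The authors trimmed paired-end reads with Trimmomatic (0.36), aligned them with STAR (2.5.2b) and deposited raw gene counts per library. Their methods name mm10 as the genome, and the processing notes list mm9 as well. The annotation release and the strand setting are not given in the sources used here. Each table held 45706 genes, of which 45143 identifiers matched GENCODE M21 and 563 did not.

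Counts were analysed with edgeR 4.0.16 (limma 3.58.1, R 4.3.3) after filterByExpr and TMM scaling. For COL against SI in the on and off states, the 2 libraries of a culture and state were summed (8 sums, 6 coefficients, 2 residual degrees of freedom). The 8 sums came from 4 cultures, and this fit had no term for culture. The change from off to on and the genotype by tissue contrast used the 16 unsummed libraries (8 coefficients, 8 residual degrees of freedom). DESeq2 1.42.0, limma-voom and the other alternatives are given in the closing section. Levels are CPM scaled by TMM over all 24 libraries, and a level at or near 0 was read against 3 counts per library, a floor that reflects counting error alone. Repeat libraries correlated at r between 0.989 and 0.995 and differed by more than counting noise.

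Named genes were members of the gene lists, in either direction at most 10 genes with the largest on-state difference and up to 6 per direction and class with the largest change, at an average log2 CPM of at least 3, with unnamed predicted genes left out. The rule asked for non-overlapping tissues in the first case and the same sign in both genotypes in the second. Braf and Trp53 were added as targeted genes. Some genes that meet the rule are not reported here. The genotype by tissue contrast was ranked like the classes. The compared libraries, gene lists and tests were chosen with earlier results of these data known. Promoters from RefSeq (GRCm38.p6) matched 293 of 413 named genes.

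The fits were tested on simulated data for 17993 genes. In the simulated on-state comparison 3% of 2-fold, 46% of 4-fold, 74% of 8-fold and 88% of 16-fold differences were recovered, with 0 false calls among 17593 unchanged genes. In the simulated off-state comparison 0%, 28%, 60% and 80% of the same folds were recovered. The simulation held 100 differences per fold in the on state and 50 in the off state, so these shares do not rank the tests. For the change, 78% of 2-fold and 92% of 4-fold differences were recovered, with 9 false calls. The simulated noise of a culture was shared by its on and off libraries. Cultures that differ in their response to induction were thus not simulated, and the number of false calls does not cover them.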

Additional observations from a re-analysis of the deposited data

Results flagged for a closer look

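Some COL-SI differences of the on state differed between BRAFp53 and BRAF organoids, by a test of that difference in edgeR (the genotype by tissue term). This term was called for 2347 genes (1334 without COL BRAF on replicate 2 and 1410 without SI BRAFp53 on replicate 2), and the 6 largest differences per direction among named genes are given on the log2 scale, as the COL minus SI difference in BRAFp53 less that in BRAF. Shifted toward COL in BRAFp53 were the Y-linked Eif2s3y (17.96) and Uty (12.74), both nearly absent from the SI BRAFp53 culture (Eif2s3y from the COL BRAF culture as well), Osr2 (12.66), Rps4l (10.94), Slc5a8 (10.85) and Car4 (9.43). Shifted toward SI in BRAFp53 were Vsig1 (-10.28), Gip (-8.42), Mtus2 (-7.24), Hoxa10 (-6.29), Neu3 (-6.20) and Fabp1 (-5.84). Several of these genes had libraries at or near 0, where the size of a fitted difference depends on the prior count. Genotype and donor culture cannot be told apart here. Groups held 2 libraries each, too few for a formal test of a single distant library. That SI BRAF on replicate 1 differed from replicate 2 is described in the report with its values.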

How the results depend on the processing

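The number of genes called depended on the tool, on the terms of the fit and on what counted as a replicate. In the on state 1822 genes were called with culture sums, 4210 with DESeq2, 5872 with limma-voom, 9130 with libraries unsummed and 3223 with no genotype term. In the off state, where 1031 were called, the same settings gave 3629, 5340, 8858 and 2395, and the off sums of all 6 cultures gave 3436. The unsummed fits take repeats of a culture as replicates. The 1466 called changes fell to 669 with an absolute log2 difference of at least 1 and to 187 on culture sums with culture as a term (21 toward COL and 166 toward SI, 169 of them shared with the 1466). The 2347 genotype by tissue calls fell to 1327 with that log2 minimum, and their split turned from 1357 toward COL and 990 toward SI to 627 and 700.

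Class sizes moved to different degrees. Persisting genes numbered 878 and came to 2787 with DESeq2, 4069 with limma-voom and 6692 unsummed. The 354 that arose became 565 with DESeq2, 423 with limma-voom (79 shared) and 345 unsummed (42 shared). The 64 that vanished became 123 with no filter on low counts, 235 with DESeq2, 193 with limma-voom and 206 unsummed, and the 3 that turned became 10, 10 and 103 under the last 3 settings. Classes under DESeq2, limma-voom, the replicate block and single left-out libraries were added after seeing the data.

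Replicate numbers showed no pairing shared by all groups, since 28 correlations of same-numbered deviations lay between -0.21 and 0.24 and 2 exceeded 0.1. The pairs of on and off libraries of a single culture were not read apart, so a pairing within a culture was not tested. With the replicate block on unsummed libraries, 9082 genes were called on, 8803 off, 1484 for the change and 2517 for genotype by tissue, with 6688 persisting, 345 arisen, 193 vanished and 101 turned.

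Leaving out 1 library at a time gave 1576 to 1956 calls on, 821 to 1311 off, 1009 to 1558 for the change and 1334 to 2455 for genotype by tissue, where the lowest value was without COL BRAF on replicate 2 and 1410 were called without SI BRAFp53 on replicate 2. Classes ranged from 707 to 1068 persisting, 269 to 358 arisen, 45 to 78 vanished and 1 to 3 turned, the 1 being without SI BRAFp53 off replicate 1. Without SI BRAF on replicate 1 there were 1605 calls on, 1558 changes, 719 persisting, 358 arisen, 52 vanished and 2 turned genes. The named genes that were called on and then lost their call were Dclk1, Olfm4, Ildr1, Hoxb8, Enpep, Slc7a7, Muc4, Ascl2 and Gkn3, and for the change Slc28a1, Acot11, Slc6a19, Gata6, Pigr, Ccl28, Rgmb, Sesn1 and Tnfrsf10b. Of 120 named off-state calls 18 were lost, among them Adh4, Pld2, Plac8, Map2k3, Ecm1, Pdlim7, Chga, Nox1, Nos2, Tcf7, Ephb3, Slc12a2 and Il1rn, with off-state differences that moved by at most 0.012.

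Upper quartile scaling moved the median of all genes in the on state from 0.05 to 0.18, with 1847 calls, 1005 higher in COL and 842 higher in SI. For named genes that were called, 4082 of 4155 pairs of gene and alternative kept the call in the on state and 73 lost it, with 3001 of 3116 kept off, 3249 of 3644 kept for the change and 276 of 276 kept for genotype by tissue, and none reversed its direction. With 2 cultures per tissue, on-state differences of 2-fold were rarely detectable, so an uncalled gene is not shown to be equal.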
